A study of Rattus norvegicus with 8 samples.

Results

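Transcripts of the proteasome subunit genes were measured in tissue of the medial thalamus from male rats of the Sprague-Dawley strain, kept conscious during the sessions. The occlusion group of 4 animals underwent repeated tracheal occlusion, and the control group of 4 had the surgery without occlusions. Both groups had daily sessions for 10 days, and tissue was taken within 10 min of the end of the last one. An occlusion lasted for 3 to 10 breaths, and the animals then recovered for about 30 s. Each animal gave 1 Agilent whole-rat oligonucleotide array, scanned in 1 colour, and the 8 arrays lay on 2 slides with 2 arrays of each group per slide. Members were taken by name as the genes whose array symbol is Psma, Psmb, Psmc, Psmd or Psme followed by a number, without Psmb8 and Psmb9. This gave 38 of the 15541 genes that the array names by a current symbol, read by 46 of its 41012 probes. They were 7 Psma, 8 Psmb, 6 Psmc, 13 Psmd and 4 Psme genes. For all 38, at least 1 probe exceeded background clearly on 4 or more of the 8 arrays, and the brightest such probe stood for the gene. The fit covered 37 of them. Psmc2 was not fitted because 5 of its 8 spots carried the scanner's outlier flag.

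The proteasome is the barrel-shaped protease that degrades ubiquitin-tagged proteins in every cell. Psma and Psmb genes encode the outer alpha rings and the inner beta rings of its core particle, and the active sites lie on beta subunits. Psmc genes encode the ATPases that unfold substrates and feed them into the core, most Psmd genes encode the remaining subunits of the regulatory particle, and Psme genes encode alternative activators that open the core without ubiquitin. In neurons the proteasome takes part in the turnover of synaptic proteins, and its genes are known to be co-regulated by the transcription factor Nfe2l1.

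Values are log2 processed signal after subtraction of each array's 75th percentile, so 0 is that percentile, and differences are occlusion minus control with limma's standard error (SE). Differences of a probe were compared across arrays, and levels of different probes were not. Between 65.0% and 71.6% of spots per array were well above background and between 1.05% and 1.55% were saturated. Of the cell type markers, all 9 measured of 10 listed thalamic relay neuron genes were higher in occlusion (median 0.70, array means 0.77 to 1.38 in occlusion and -0.29 to 0.95 in control), and all 6 GABA neuron genes were lower (median -1.61, array means -0.29 to 1.496 in occlusion and 1.35 to 2.89 in control). Oligodendrocyte markers were lower in 8 of 10 (median -0.45). Array means are not given because Mobp and Cnp lacked a value on the first occlusion array, Mobp on the second and Mbp on the fourth. Choroid plexus markers were lower in 4 of 5, while the fifth, Ttr, was higher by 1.83 (list median -0.59, array means -1.83 to -1.29 in occlusion and -2.34 to -0.94 in control). In this list the groups did not overlap for Ttr and, in the other direction, for Clic6 at -0.91. Medians were -0.13 for 6 astrocyte, -0.09 for 7 microglial and 0.17 for 5 endothelial markers. The endothelial marker Pecam1 was well above background on 1 array and the choroid plexus marker Kl on 0. No marker passed an adjusted p of 0.05 with limma. The part of these cell types in the proteasome values was not tested, and in tissue RNA fewer cells of a type and less RNA per cell cannot be told apart.

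The array read each gene through 60-base probes, and the probes below are shown because the results on the catalytic, ATPase, lid and activator genes rest on them. They are the deposited probe sequences, 5′ to 3′, in lower case throughout, with positions on rat assembly rn3 as the files give them. Gene models of that assembly were not used here and the exon under a probe is not named, but a probe whose position spans more than 60 bases crosses at least 1 exon junction. This held for 15 of the 38 brightest probes.
Psmb5, chr15:32705834-32705893, minus strand: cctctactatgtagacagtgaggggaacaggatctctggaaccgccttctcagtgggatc
Psmb6, chr10:57384991-57385050, plus strand: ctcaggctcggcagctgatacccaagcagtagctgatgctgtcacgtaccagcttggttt
Psmb7, chr3:18309603-18329477, minus strand: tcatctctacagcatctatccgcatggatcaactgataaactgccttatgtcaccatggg
Psmc4, chr1:83229426-83229648, minus strand, brightest: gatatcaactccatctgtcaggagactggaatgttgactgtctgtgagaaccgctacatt
Psmc4, chr1:83230021-83230221, minus strand, other: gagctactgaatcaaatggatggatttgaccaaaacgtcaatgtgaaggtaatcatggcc
Psmd7, chr19:37457873-37457932, minus strand, brightest: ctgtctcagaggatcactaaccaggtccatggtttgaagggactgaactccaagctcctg
Psme1, chr15:33730266-33730552, plus strand: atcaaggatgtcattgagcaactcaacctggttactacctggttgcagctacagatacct
Psme2, chr15:33739894-33740973, minus strand: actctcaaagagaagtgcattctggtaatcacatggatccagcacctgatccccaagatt
The 2 Psmc4 probes lie in neighbouring stretches of the gene and share no base of the assembly. Psme1 and Psme2, whose products form a joint activator ring, lie close together on chromosome 15.

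Across the complex, differences between occlusion and control were small. The 37 fitted genes ranged from -0.36 (Psme1) to 0.20 (Psmc1, read through a probe saturated on 7 arrays), with a median of 0.031, against a median of 0.022 over all 27161 probes. Among the 31 genes never saturated the highest was Psmd7 at 0.18 and the median 0.0039. The median size of the difference without its sign was 0.081 for the proteasome genes and 0.17 for all probes, and the median SE was 0.14 and 0.17. Each proteasome probe was well above background on every array, as were 24291 of the 27161 probes. No set of probes matched for brightness was compared, here or below. No proteasome gene passed an adjusted p of 0.05 in limma, and the smallest adjusted p was 0.445. Over all probes 0 passed (0%), with a smallest adjusted p of 0.403. At an unadjusted p under 0.05 stood 1 proteasome gene, Psme1, beside 11.1% of all probes. In 22 of 37 genes the occlusion mean was the higher one, beside 53.6% of all probes, and after quantile normalization in 18 of 37, with a median of -0.01. Occlusion and control values did not overlap in 2 genes, Psmc4 and Psmd7, both higher in occlusion, beside 6.71% of all probes in either direction (3.9% higher and 2.82% lower in occlusion). The count was 7 without the fourth occlusion array, beside 15.3% of all probes. It was 4 without the third and 4 without the fourth control array, beside 8.85% and 16.3%.

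The 95% interval of the difference lay between -0.5 and 0.5, that is within 1.41-fold either way, for 30 of 37 proteasome genes, beside 37.3% of all probes. It lay between -1 and 1 for all 37, beside 79.6% of all probes. Of the 31 genes whose probe was never saturated, 27 had an interval within 0.5 and 31 within 1. The other 6 intervals are not read as bounds, because saturated spots do not follow changes in signal in full. The 7 genes with a wider interval than 0.5 were Psma6, Psmc1, Psmd1, Psmd9, Psme1, Psme3 and Psme4. The plot of differences by gene shows the intervals crossing 0 for every fitted gene but Psme1.

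**Figure D1:**
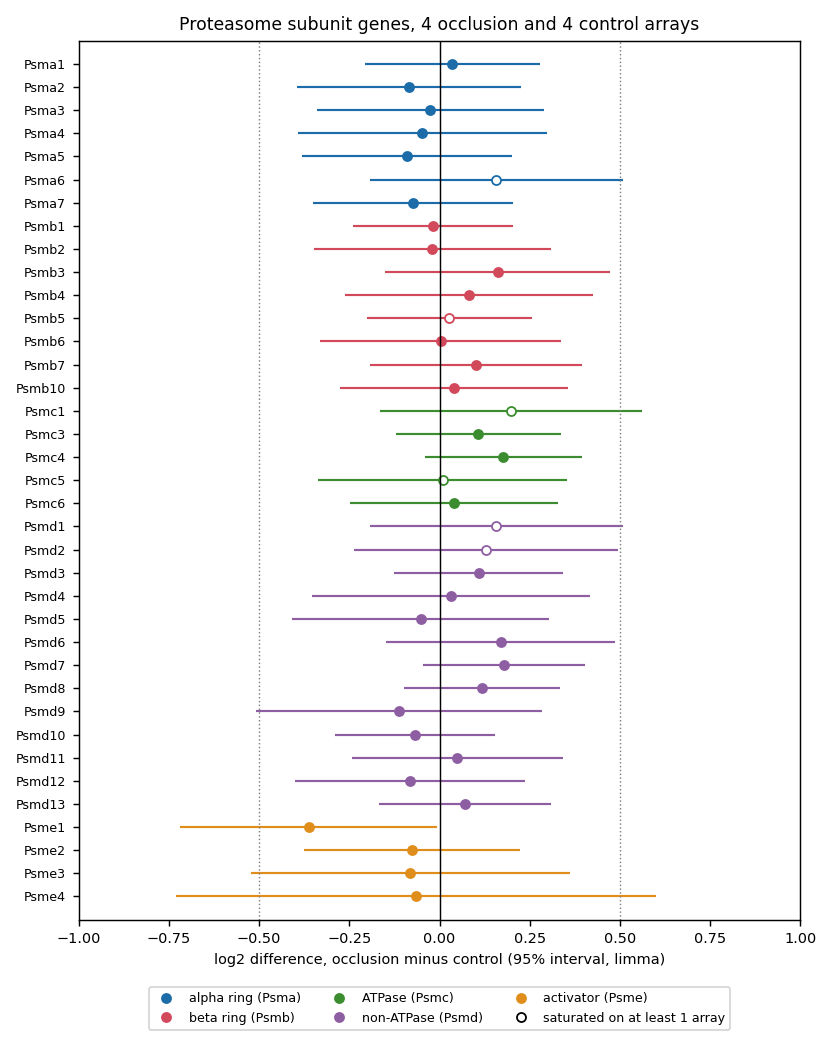
Log2 difference in scaled signal, occlusion minus control, for the 37 fitted proteasome genes (x axis, points with 95% intervals from limma), 1 row per gene and coloured by class. All differences lie between -0.36 and 0.20, dotted lines mark -0.5 and 0.5, and open circles are genes whose probe was saturated on at least 1 array.

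The alpha ring genes, whose products gate the entrance of the core, had 5 of 7 differences below 0 and a median of -0.05. The median was 0.031 without the fourth occlusion array and 0.0055 without the second control array, and -0.12 without the third occlusion array. Psma5 had 4.41, 4.60, 4.62 and 4.15 on the occlusion arrays and 4.55, 4.57, 4.45 and 4.57 on the control arrays. Its groups overlapped, since the fourth occlusion array held the lowest value and the third the highest. The difference was -0.09 (SE 0.13). Psma2 differed by -0.09 (SE 0.14) and Psma1 by 0.035 (SE 0.11), with overlapping groups as well. Psma6 was measured by a probe saturated on all 8 arrays, so its value of 0.16 (SE 0.15) compares spots at the top of the scanner's range and no fold is given for it. A second Psma6 probe that was never saturated averaged 3.86 ± 0.13 in occlusion and 4.02 ± 0.13 in control (SD, n = 4 each). Its difference was -0.16 (SE 0.12, adjusted p = 0.633 with limma), of opposite sign to the saturated probe.

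In the beta ring, 6 of 8 differences were above 0 and the median was 0.034. It lay between -0.01 (without the third control array) and 0.090 (without the fourth occlusion array), and 6 of the 8 genes had opposite signs on the 2 slides. Psmb5, the chymotrypsin-like subunit, read 4.83, 4.83, 4.85 and 4.70 on the occlusion arrays and 4.78, 4.86, 4.62 and 4.85 on the control arrays. Both groups held 1 low array among 3 closely placed ones, and the difference was 0.028 (SE 0.10), with a 95% interval from -0.20 to 0.26. The probe was saturated on 1 occlusion array. Psmb6, the caspase-like subunit, read 3.40, 3.17, 3.53 and 3.28 in occlusion and 3.41, 3.40, 3.00 and 3.54 in control. The control values spanned the occlusion values completely, and the difference was 0.0039 (SE 0.15). Psmb7, the trypsin-like subunit, read 3.17, 3.12, 3.33 and 3.32 in occlusion and 3.25, 3.10, 2.86 and 3.32 in control, a difference of 0.10 (SE 0.13). The 3 catalytic genes thus had adjusted p values of 0.945, 0.996 and 0.799 in limma. The intervals of Psmb6 and Psmb7 reached no farther than -0.33 and 0.40, and that of Psmb5 is not read as a bound. Among the structural beta genes, Psmb3 had the highest difference at 0.16 (SE 0.14), followed by Psmb4 at 0.081 (SE 0.15), while Psmb1 and Psmb2 stood at -0.018 (SE 0.097) and -0.020 (SE 0.14).

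Psmb10 encodes the interferon-inducible subunit that replaces the Psmb7 product in the immunoproteasome. It read 3.51, 3.52, 3.57 and 3.05 in occlusion and 3.26, 3.45, 3.43 and 3.36 in control. Of the occlusion arrays, 3 lay above every control array and the fourth below every one, so that the difference was 0.041 (SE 0.14). Without the fourth occlusion array it was 0.16. Its partner subunits Psmb8 and Psmb9 are not members by name and are given here beside it. Psmb9 read 0.033, -0.49, -0.32 and -0.33 in occlusion and -0.02, -0.01, 0.44 and -0.12 in control. In occlusion 3 of 4 values lay below all control values, and the difference was -0.35 (SE 0.16, adjusted p = 0.466 with limma). It was -0.08 on slide 1 and -0.63 on slide 2. Psmb8 differed by -0.23 (SE 0.15, adjusted p = 0.583 with limma).

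**Figure D2:**
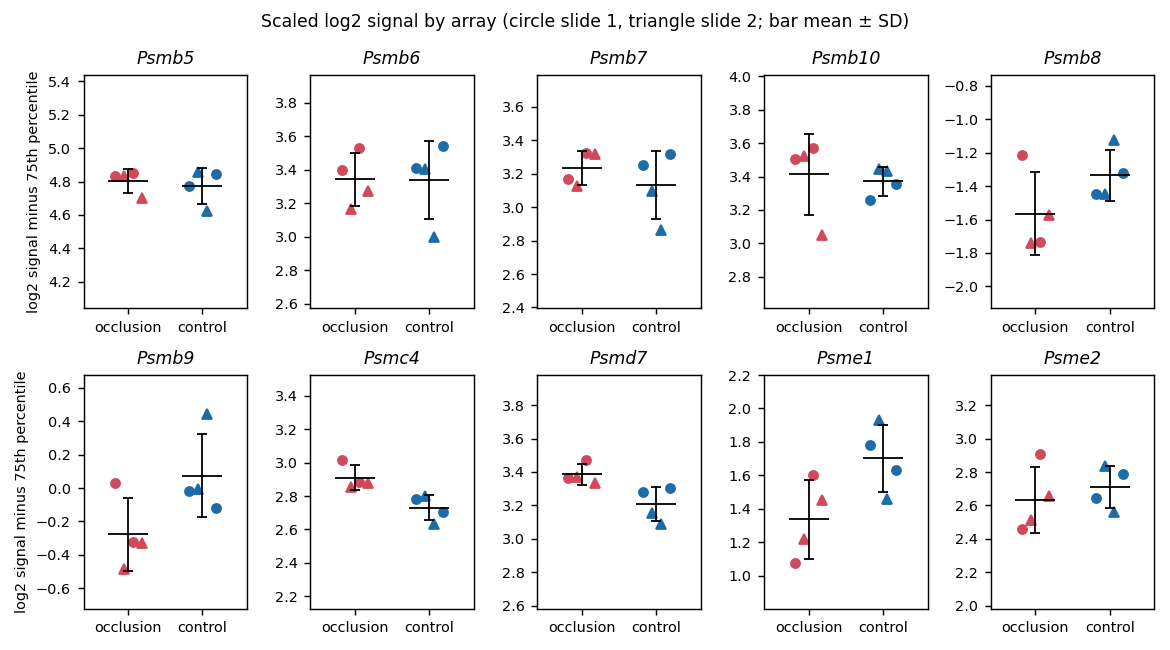
Scaled log2 signal on each array for 10 genes (y axis, log2 units relative to the array's 75th percentile; each panel covers the same height), with occlusion left and control right, circles for slide 1, triangles for slide 2 and bars for mean ± SD (n = 4 each). Psmb5, Psmb6, Psmb7 and Psmb10 overlap between groups, Psmc4 and Psmd7 do not, and Psme1 has 3 of 4 occlusion values below 1.46.

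All 5 fitted ATPase genes of the Psmc class had differences above 0, with a median of 0.11, which lay between 0.060 and 0.16 when any 1 array was left out. Psmc4 read 3.02, 2.85, 2.88 and 2.88 on the occlusion arrays and 2.78, 2.80, 2.63 and 2.71 on the control arrays. Every occlusion value lay above every control value, the difference was 0.18 (SE 0.095), and the adjusted p was 0.509 with limma. The second Psmc4 probe shown above read 2.42, 2.40, 2.41 and 2.60 in occlusion and 2.35, 2.38, 2.26 and 2.41 in control. It differed by 0.11 (SE 0.098), in the same direction but with overlapping groups. Psmc3 stood at 0.11 (SE 0.10) and Psmc6 at 0.040 (SE 0.13). Psmc1 and Psmc5 were saturated on 7 and 8 arrays, so that their 0.20 (SE 0.16) and 0.0092 (SE 0.15) carry the same limit as the saturated Psma6 probe. With flagged spots kept, Psmc2 read 5.07, 4.93, 5.13 and 4.95 in occlusion and 5.02, 5.15, 4.73 and 5.08 in control, a difference of 0.025 (SE 0.12).

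The Psmd genes had 9 of 13 differences above 0 and a median of 0.071, which lay between 0.033 (without the third occlusion array) and 0.12 (without the fourth). Psmd7, a lid subunit that pairs with the deubiquitinating subunit (Psmd14, not analysed here), read 3.37, 3.37, 3.47 and 3.33 in occlusion and 3.28, 3.15, 3.09 and 3.30 in control. The lowest occlusion array lay just above the highest control array, and the difference was 0.18 (SE 0.098, adjusted p = 0.516 with limma). The other 2 Psmd7 probes differed by 0.051 (SE 0.095) and -0.08 (SE 0.19), both with overlapping groups. Psmd8 and Psmd6, also of the lid, stood at 0.12 (SE 0.094) and 0.17 (SE 0.14). Psmd4, which binds ubiquitin chains, stood at 0.031 (SE 0.16) over 3 occlusion and 4 control values. Psmd1 and Psmd2, the large scaffold subunits, gave 0.16 (SE 0.15) and 0.13 (SE 0.16) through probes saturated on 7 and 8 arrays, while their unsaturated second probes gave 0.043 (SE 0.10) and -0.03 (SE 0.12). Psmd5, Psmd9 and Psmd10 encode chaperones that help to assemble the regulatory particle and leave the finished one. They differed by -0.05 (SE 0.16), -0.11 (SE 0.17) and -0.07 (SE 0.096), and the remaining gene of the class below 0 was Psmd12 at -0.08 (SE 0.14).

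The 4 activator genes all had differences below 0, with a median of -0.08. The median was 0.0024 without the fourth occlusion array and -0.22 without the second, and Psme3 and Psme4 stood at 0.088 and 0.15 without the fourth. Psme1 encodes the alpha subunit of the interferon-inducible activator and read 1.07, 1.22, 1.603 and 1.45 on the occlusion arrays, against 1.78, 1.93, 1.46 and 1.63 on the control arrays. The first and second occlusion arrays lay well below all controls, while the third and the fourth lay among or just under the lower controls. The difference was -0.36 (SE 0.16), with a 95% interval from -0.72 to -0.01 and an adjusted p of 0.445 in limma. It was -0.37 on slide 1 and -0.36 on slide 2, and lay between -0.45 and -0.28 when any 1 array was left out. Psme2, the partner of Psme1 in the same ring, read 2.46, 2.51, 2.91 and 2.65 in occlusion and 2.65, 2.84, 2.56 and 2.79 in control. Its groups overlapped, with 2 occlusion arrays lowest and 1 highest, and the difference was -0.08 (SE 0.13). Psme3, the nuclear activator, stood at -0.08 (SE 0.18, 3 arrays per group), and Psme4, the activator linked to histone degradation, at -0.07 (SE 0.29), the widest error of the set. The difference between Psme1 and the other activators was not tested.

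Saturation went with the sign of the differences. The 6 genes whose brightest probe was saturated on at least 1 array (Psma6, Psmb5, Psmc1, Psmc5, Psmd1 and Psmd2) all read higher in occlusion, with a median of 0.14. By slide, the median of these 6 genes was 0.31 on slide 1 and -0.020 on slide 2, and 4 of them had opposite signs between slides. The median over the 634 saturated probes of the whole array was 0.13. Among the 31 genes never saturated, 16 were higher and 15 lower, and the median was 0.0039. The 75th percentile subtracted from each array was 1619, 1578, 1439 and 2216 units of processed signal on the occlusion arrays and 1861, 1771, 1919 and 1953 on the control arrays. It was lowest on the third and highest on the fourth occlusion array, and its part in the values of saturated probes was not tested. With every saturated probe left out, 34 genes remained, 17 of them higher in occlusion, with a median of -0.0071.

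Of the 7 genes read by more than 1 fitted probe under their array symbol, the probes gave the same sign in 3 (Psmc4, Psmd1 and Psme4) and different signs in 4 (Psma6, Psmc6, Psmd2 and Psmd7). A further probe, named Psma3l on the array and Psma3 by current symbol, is not counted here. It gave 0.024 (SE 0.16), of opposite sign to the Psma3 member probe at -0.025 (SE 0.13). The Psmc6 probes gave 0.040 (SE 0.13) and -0.05 (SE 0.11), and the Psme4 probes gave -0.07 (SE 0.29) and -0.01 (SE 0.22). In no gene did a probe pass the threshold, and where no probe of the gene was saturated the largest gap was that of Psmd7, between 0.18 and -0.08. The RefSeq gene table of assembly GRCr8 lists 43 pseudogene entries for 17 of the 38 genes, most for Psmb3 (7), Psma6 (5) and Psme3 (4), and whether probes also bind transcripts of such copies was not tested. The thymus form Psmb11 was well above background on 0 arrays and the testis form Psma8 on 1, under older names in the array's design.

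**Figure D3:**
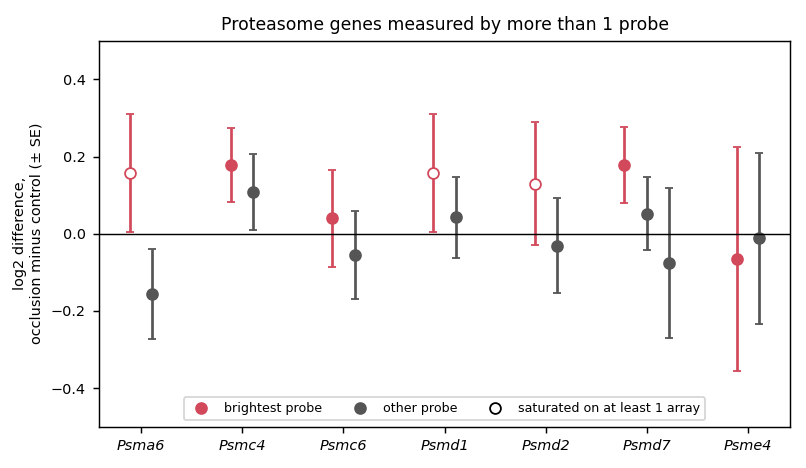
Log2 difference, occlusion minus control (y axis, ± SE), for the 7 proteasome genes with more than 1 fitted probe under their array symbol, with the brightest probe left of the other probes and open circles for probes saturated on at least 1 array. The Psma6 probes stand at 0.16 and -0.16, and the Psmc4 probes at 0.18 and 0.11.

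Many proteasome genes were high or low on the same arrays, in both groups. Relative to each gene's mean over the arrays, the median deviation of the 37 genes was 0.042, 0.037, 0.15 and -0.14 on the occlusion arrays and -0.01, 0.064, -0.15 and 0.026 on the control arrays. The third occlusion array was thus high, and the fourth occlusion and the third control array were low by about the same amount, both on slide 2. The fourth occlusion array held the lowest value of 15 genes and the third control array that of 17, while the third occlusion array held the highest value of 16. For comparison, 20.003% and 21.3% of all probes had their lowest value on those 2 low arrays. The deviation of all kept probes was 0.050, -0.0030, 0.081 and -0.06 in occlusion and 0.016, -0.0097, -0.04 and 0.016 in control, in the same direction on these 3 arrays but smaller. The third control array also had the lowest relay neuron marker mean (-0.29) and the highest GABA neuron marker mean (2.89) of any array. The fourth occlusion array held neither end of its group's range. The third occlusion array, high in proteasome genes, had its group's lowest relay mean (0.77) and highest GABA mean (1.496). The part of tissue composition in these deviations was not tested.

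**Figure D4:**
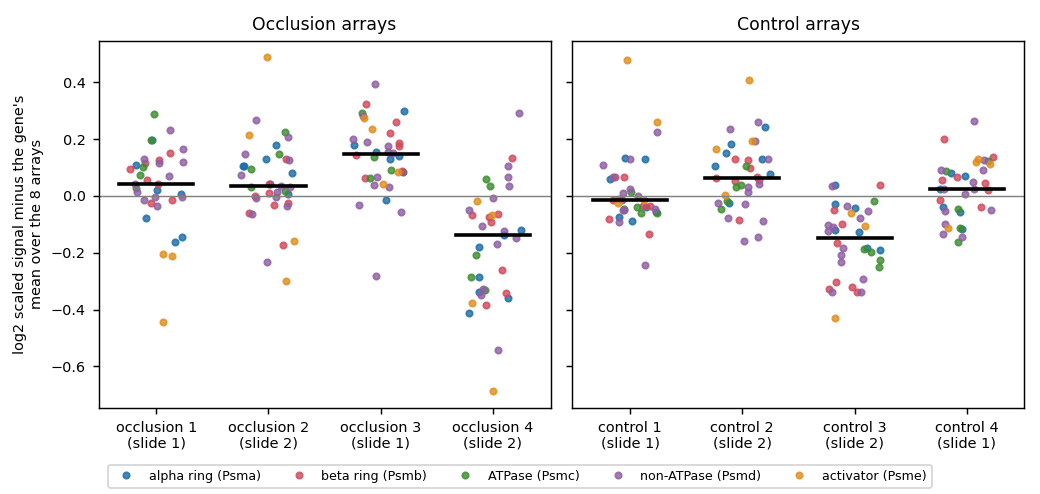
Deviation of each proteasome gene from its own mean over the 8 arrays (y axis, log2 units; 1 point per gene, coloured by class; black bars are medians), with occlusion arrays left and control arrays right. Medians are 0.15 on occlusion array 3, -0.14 on occlusion array 4 and -0.15 on control array 3, so that each group holds a low array.

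Around their group means the never saturated genes correlated with each other over the 8 arrays with a median pairwise r of 0.464, over 378 pairs of the 28 genes with all 8 values, against 0.022 over all probes. These pairs share arrays, RNA and scaling, and the figure is a description. Within classes the median r was 0.765 for Psma, 0.643 for Psmb, 0.481 for Psmc, 0.374 for Psmd and 0.303 for Psme genes. These rest on 10, 21, 3, 45 and 3 pairs, and the 3 Psme pairs ran from 0.184 to 0.857, so the order of classes is not firm. The highest correlation with the mean of the other members was that of Psmb4 (0.959), followed by Psmb3 (0.930), while Psmd5 had the lowest (-0.437). The value rested in part on the low arrays. The median r was 0.428 without the fourth occlusion array, 0.323 without the third control array, 0.189 without both, and 0.281 after quantile normalization. The median r over all probes was not computed under these settings, so these values have no matching comparison. The low arrays also set the count of differences above 0, which was 30 of 37 without the fourth occlusion array and 15 of 37 without the third control array, beside 57.5% and 50.9% of all probes.

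The genes that work with the proteasome were listed by role, and 56 of 65 were measured. None passed an adjusted p of 0.05 in limma, 31 were higher and 25 lower in occlusion, and the median was 0.021. The assembly factors and regulators had 7 of 11 above 0 with a median of 0.083, among them Ube3c, a ligase on the proteasome, at 0.23 (SE 0.15) and Psmg1, an assembly chaperone of the alpha ring, at -0.15 (SE 0.12). Pomp, the maturation factor of the core, stood at 0.17 (SE 0.16) through a probe saturated on 8 arrays. Of the deubiquitinating enzymes on the regulatory particle, Usp14 stood at 0.16 (SE 0.14) and Uchl5 at -0.18 (SE 0.16), and the ubiquitin receptor Adrm1 stood at 0.23 (SE 0.21). Among 9 genes of transcriptional control, 4 were higher and 5 lower, with a median of -0.07. Nfe2l1, the factor that drives proteasome genes when proteasome activity is low, differed by -0.07 (SE 0.11), and Stat3, a signalling factor, by 0.17 (SE 0.10). Nfe2l2, a relative of Nfe2l1 that regulates oxidative stress genes, read 0.56, 1.12, 0.82 and 0.73 in occlusion and 1.08, 1.49, 1.80 and 0.99 in control. Of its occlusion values 3 lay below all control values, and the difference was -0.53 (SE 0.21, adjusted p = 0.421 with limma).

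Ubiquitin genes and the enzymes that charge and carry ubiquitin had 11 of 14 differences above 0 and a median of 0.087, with 6 of the 14 read by a saturated probe. Ube2d1, a ubiquitin-conjugating enzyme, read 0.91, 0.71, 0.71 and 0.79 on the occlusion arrays and 0.42, 0.48, 0.43 and 0.46 on the control arrays. The groups stood clear of each other, with a difference of 0.33 (SE 0.094, 95% interval from 0.12 to 0.55) and an adjusted p of 0.403 in limma. Its paralogue Ube2d3 differed by -0.02 (SE 0.099). The shuttle and unfolding factors had 8 of 14 above 0 and a median of 0.075, with Bag6 at 0.18 (SE 0.11) and Nbr1, a receptor that carries ubiquitin-tagged cargo to autophagy, at -0.38 (SE 0.20). Of the 8 interferon-induced partners, which include Psmb8, Psmb9 and the peptide transporter genes, 7 were lower, with a median of -0.21. Tap1 stood at -0.38 (SE 0.16, adjusted p = 0.443 with limma) and Tap2 at 0.15 (SE 0.17). Groups did not overlap for 3 of the 56 partner genes, Stat3, Ube2d1 and Vcp, all higher in occlusion, beside 6.71% of all probes.

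**Figure D5:**
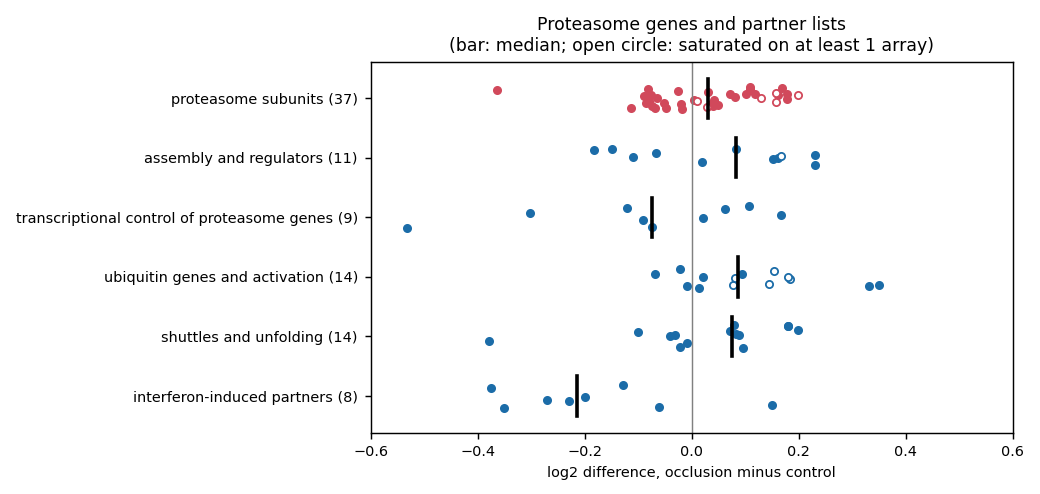
Log2 difference, occlusion minus control (x axis), for the 37 fitted proteasome genes and 5 lists of partner genes (rows, number measured in brackets), with 1 point per gene, bars for medians and open circles for probes saturated on at least 1 array. Medians are 0.031 for the proteasome genes and between -0.21 and 0.087 for the partner lists.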

How the data were processed

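The deposited values are Agilent processed intensities, which per the file headers come from Feature Extraction 9.5.1.1, are background-subtracted and are not normalised between arrays. Each array has 1 channel per the file headers, although the design text speaks of a reference. A deposited table of all arrays held these intensities to within 0.497% and served as an alternative. From the deposited intensities, log2 values were computed, outlier-flagged spots left out, each array's 75th percentile subtracted and spots of a probe averaged. Saturated spots were kept. Probes well above background on at least 4 of 8 arrays, with at least 2 values per group, gave 27161 probes. They were fitted with limma 3.58.1 (R 4.3.3) with Benjamini-Hochberg adjustment over all probes. The test was checked on simulated data with independent noise and changes larger than any proteasome difference. That check does not cover small differences or shifts shared by many probes. The number of arrays, 4 per group, limits the precision. Replicates are separate animals per the design text. Symbols were updated through RefSeq (GRCr8, names only). Members, partner lists and marker lists were chosen with earlier results of these data known. The rule for named genes took the 2 highest and the 2 lowest limma statistics in each class, members whose groups do not overlap, the catalytic genes, Psmb10, Psmd4, all activators, the highest and the lowest statistic of each partner list, and Psmb8, Psmb9, Nfe2l1, Pomp, Adrm1, Usp14 and Uchl5. Other genes were named for their role or a second probe after their values were seen.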

Additional observations from a re-analysis of the deposited data

Results flagged for a closer look

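In 7 of 77 groups of 4 arrays examined, 1 array stood far from the other 3. The rule flags about 1 in 20 independent groups by chance. The groups here share arrays and belong to genes named partly for their statistics, so the count is not set against that rate. For 5 genes this was the low value of the fourth occlusion array. Psmc6 read 3.81 there, against 4.11 to 4.12 on the other occlusion arrays. Psmd9 read 1.19, against 1.77 to 1.88. Psmb5 read 4.70, against 4.83 to 4.85. Psmb10 read 3.05, against 3.51 to 3.57. Pomp, saturated on all arrays, read 4.66, against 5.25 to 5.34. The fourth occlusion array also had the highest 75th percentile of processed signal, 2216 units, and the part of this in the values was not tested. Ube2d3 read 3.34 on the third occlusion array, against 3.55 to 3.597 on the other occlusion arrays. Tap2 read -0.31 on the fourth control array, against -0.83 to -0.79 on the other control arrays.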

How the results depend on the processing

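In 21 alternatives, 8 of which left out 1 array, 0 proteasome and 0 partner genes passed the threshold. Normexp background correction gave 1 probe past it among all probes, against 0 otherwise. The proteasome median lay between -0.04 and 0.10 when 1 array was left out and between -0.02 and 0.053 under the other alternatives, and 15 to 30 of the genes were higher in occlusion. Leaving out 1 array gave 25 to 30 genes with an interval within 0.5 and 2 to 7 genes whose groups did not overlap (7 without the fourth occlusion array, 4 without the third or the fourth control array). With 2 arrays per group, slide 1 alone gave 14 such intervals and 20 such genes, and slide 2 alone 0 and 7, beside 42.1% and 43% of all probes without overlap. Class medians changed sign for alpha ring, beta ring and activator genes when 1 array was left out. Proteasome medians were 0.039 and -0.02 on slides 1 and 2, and 17 genes had opposite signs between slides. Of 501 values of the named members under alternatives, 41 had the opposite sign, 4 moved by over 1 pooled SD and 0 passed the threshold. With the replicate number as a block, 23 genes were higher, the median was 0.035 and 0 passed. Whether the numbers pair the arrays was not settled. Correlations of same-numbered deviations were 0.355, 0.514, -0.07 and -0.29. The same-numbered control had the highest correlation for replicates 1 and 2 but not for 3 and 4. Probes at the scanner's ceiling cannot show a difference in size.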
